A study of Mus musculus with 4 samples.

Results

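The genes described here are 37 mouse genes of cholesterol and fatty acid synthesis and of their control by the SREBP transcription factors, taken by name from a list of such genes. Of the 37 names, 36 had a row among the 37583 features of each table, and Hmgcs1 was not analysed here. The cells were naive CD4+ T cells sorted from the spleens of C57BL/6 mice. They were stimulated for 24 h through CD3 and CD28 with 10 ng/ml IL-1β, 10 ng/ml IL-6, 20 ng/ml IL-23 and, to keep other fates out, 10 µg/ml each of anti-IL-4 and anti-IFN-γ. The labels name this culture aTh17. One culture also received 1.5 µM DMAT and another 1 µM CX4945, both inhibitors of the protein kinase CK2, and the titles name a control culture without the inhibitor for each. Each of the 4 groups held 1 library, and the labels do not say how many mice or cultures stand behind it, nor whether the controls received the solvent.

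Animal cells make cholesterol from acetyl-CoA through mevalonate, isoprenoids, squalene and lanosterol, and make fatty acids from the same precursor. The transcription factors SREBP1 and SREBP2, made from Srebf1 and Srebf2, raise the genes of both routes. They reach the nucleus after the escort protein SCAP carries them from the endoplasmic reticulum to the Golgi, a step that INSIG proteins block when sterols are plentiful. T cells that are activated through their antigen receptor switch this programme on to build membrane as they grow.

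The 4 libraries held 2056635 to 2772525 exon reads, and 9331 to 9661 genes had at least 10 reads in one. Levels are in CPM, a gene's exon reads divided by the scaled total of its library and multiplied by 1000000. Folds and intervals are plain CPM ratios, while log2 ratios and the counts of 2-fold and 1.5-fold genes use a prior count of 2, which draws genes with few reads towards 0. With 1 library per group, a ratio between libraries has no replicate check and no p-value, and the 95% intervals given are exact counting intervals (Clopper-Pearson) that leave out variation between cultures. The 6 CD4 T cell markers examined were present in every library, with 1392 to 1592 CPM in sum. The 23 markers of other blood cells summed to 15 to 22 reads per library, with at most 9 for one gene, and those of NK cells, erythroid cells and platelets were at 0. RNA from cultures cannot tell fewer cells of a type from less RNA per cell.

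Promoters are shown because the genes were listed as targets of one family of transcription factors. RefSeq start sites (GRCm38.p6) were at hand for 28 of the 36 genes, with 38 windows of the 250 bases before the start, and both strands were searched. Exact matches to the sterol element TCACNCCAC were in 0 of the 38 windows and in 1.01% of the 8731 windows of all genes tested. At so low a share, 38 windows are too few to show whether these genes hold fewer or more such matches. Variant forms of the element and sequence outside the windows were not searched, so the count does not show that the genes lack one. The CCAAT box, the sequence bound by the SREBP partner NF-Y, was in 23 windows (60.5%), against 36.1% in all genes tested. The GC box GGGCGG, bound by the partner Sp1, was in 27 windows (71.1%), against 60.0%. The motifs do not overlap one another in the windows printed. Where a gene had several windows, the most 5′ one was chosen for printing, and which start these cells use was not examined. The 5 windows printed here, from 4 sterol pathway genes and the desaturase Fads2, run 5′ to 3′ on the gene's strand with CCAAT and GGGCGG, or their reverse complements, in capitals. They lie at chr8:64733579-64733828 (Sc4mol, minus strand), chr5:4104698-4104947 (Cyp51, minus), chr3:89454291-89454540 (Pmvk, plus), chr13:8885356-8885605 (Idi1, plus) and chr19:10101504-10101753 (Fads2, minus). Fads2 holds a GC box and no CCAAT box, while the other 4 windows each hold at least 1 CCAAT box.
Sc4mol: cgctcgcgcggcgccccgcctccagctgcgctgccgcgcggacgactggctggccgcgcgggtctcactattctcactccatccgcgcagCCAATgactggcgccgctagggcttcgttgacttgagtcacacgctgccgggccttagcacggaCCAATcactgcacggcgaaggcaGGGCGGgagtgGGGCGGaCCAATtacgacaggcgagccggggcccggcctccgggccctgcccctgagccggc
Cyp51: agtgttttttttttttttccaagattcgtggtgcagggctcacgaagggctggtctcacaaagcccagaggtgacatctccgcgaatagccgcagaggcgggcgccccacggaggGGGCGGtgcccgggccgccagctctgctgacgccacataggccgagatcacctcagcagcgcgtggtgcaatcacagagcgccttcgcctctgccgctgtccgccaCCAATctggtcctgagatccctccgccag
Pmvk: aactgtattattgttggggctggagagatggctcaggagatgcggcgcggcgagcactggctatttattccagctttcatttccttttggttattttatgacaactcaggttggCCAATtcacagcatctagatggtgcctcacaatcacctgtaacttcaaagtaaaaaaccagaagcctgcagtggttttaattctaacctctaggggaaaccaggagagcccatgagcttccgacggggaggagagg
Idi1: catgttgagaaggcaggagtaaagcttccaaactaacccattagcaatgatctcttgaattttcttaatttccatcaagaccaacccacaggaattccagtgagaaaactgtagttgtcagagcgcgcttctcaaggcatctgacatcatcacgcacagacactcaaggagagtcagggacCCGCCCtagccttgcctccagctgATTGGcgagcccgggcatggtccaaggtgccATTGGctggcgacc
Fads2: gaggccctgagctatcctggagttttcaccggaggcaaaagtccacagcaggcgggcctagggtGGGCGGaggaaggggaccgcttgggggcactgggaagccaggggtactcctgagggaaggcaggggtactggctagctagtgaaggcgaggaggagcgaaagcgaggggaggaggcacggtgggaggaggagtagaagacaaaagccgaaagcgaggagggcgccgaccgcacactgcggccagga

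Across the pathway, levels were highest in the library with DMAT and lowest in the library with CX4945. Of the 35 genes with enough reads for a fit over all libraries, 29 had their highest level with DMAT, where 26.9% of all genes did, and 28 had their lowest level with CX4945, where 28.8% of all genes did. Summed over the 36 genes, the transcripts made up 5633 CPM in the control for DMAT, 6591 CPM with DMAT, 4365 CPM in the control for CX4945 and 3640 CPM with CX4945. The sum was thus lower in both libraries of the CX4945 experiment than in either of the other. Per kilobase of exon the genes covered a wide range, and the median over the libraries was highest in Fdps, Scd2, Idi1, Acly and Fasn (117, 113, 97.7, 96.8 and 83.4 CPM per kilobase of exon). Few reads of Fdps (34.5%) and Idi1 (4.44%) were unique to one place in the genome. Apart from Me1, the lowest was Acss2 (1.17 CPM per kilobase of exon).

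**Figure D1:**
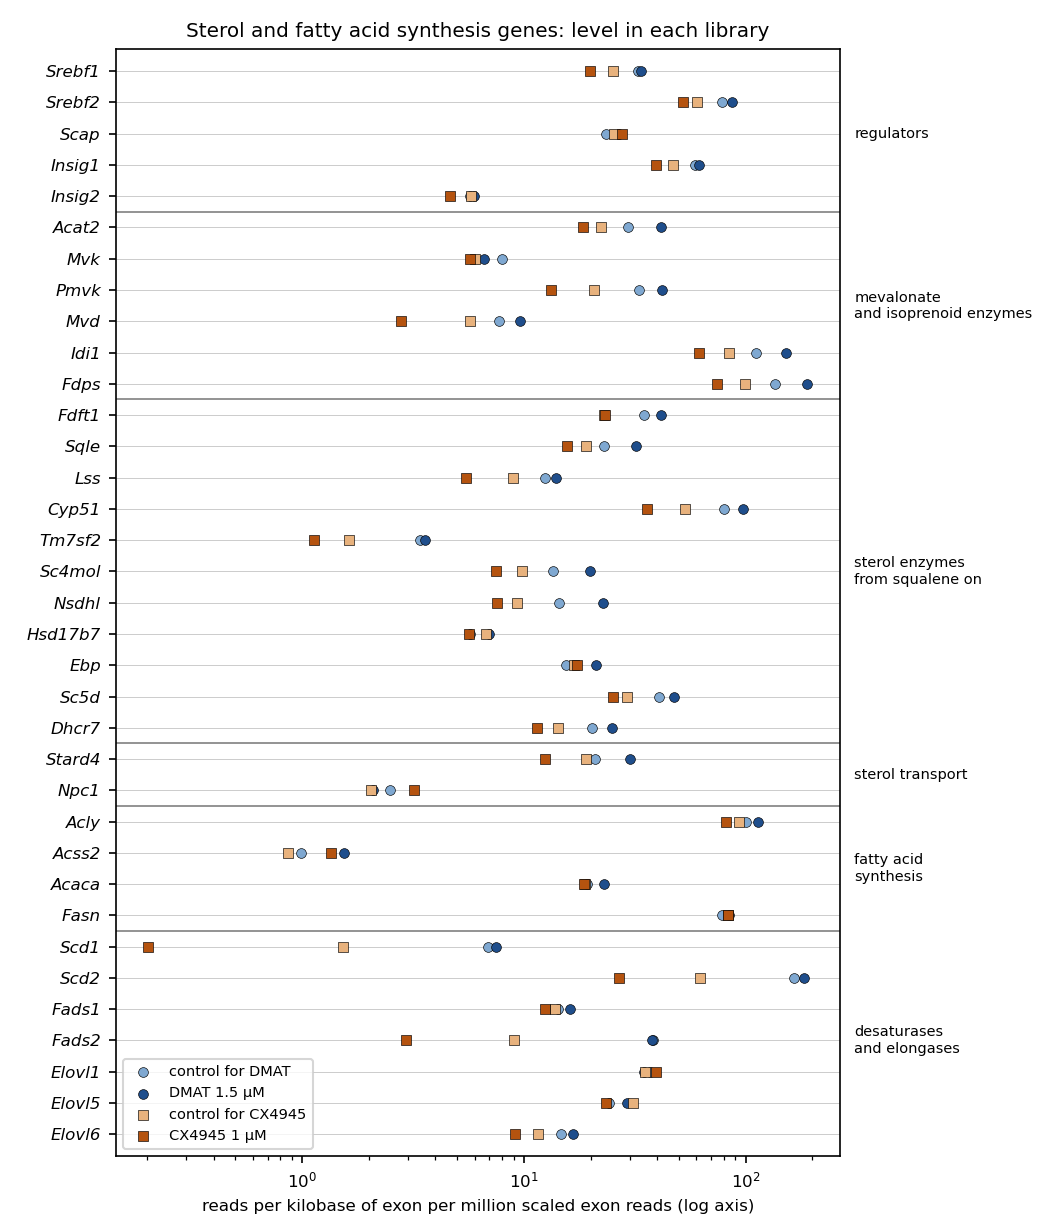
Level of each gene in the 4 libraries, in CPM per kilobase of exon on a log axis, with genes grouped by role and 1 symbol per library. In most rows the DMAT library (dark circle) is rightmost and the CX4945 library (dark square) leftmost. Scd1, Scd2 and Fads2 show the widest gap between the experiments, and the row of Fasn is narrow. Me1, with 1 read in all, is not drawn.

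With DMAT the pathway was slightly higher than in its control. Of 35 genes with at least 20 reads in the pair, 31 had a log2 ratio above 0, against 50.8% of all 9649 genes, and 4 below 0, against 49.2%. The median was 0.23, against 0.00 over all genes, whose quartiles were -0.17 and 0.18. The counting interval lay above 1 in 18 genes (9.21% of all genes) and below 1 in 0 (9.73%). The shift was small, since 0 genes were at least 2-fold higher (1.09% of all genes) or lower (1.3%), and 2 were at least 1.5-fold higher (4.56%). The gene nearest to 2-fold was Nsdhl, at a log2 ratio of 0.66. With unique reads alone it was Acss2, at 0.92.

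With CX4945 the pathway was slightly lower than in its control. Of 34 genes tested, 28 had a log2 ratio below 0 (49.4% of all 9358 genes) and 6 above 0 (50.6%), with a median of -0.29 against 0.00 over all genes, and the counting interval lay below 1 in 12 (7.42%). It lay above 1 in 1 gene, Npc1 (7.3%). Scd2 and Fads2 were at least 2-fold lower (2 genes, where 0.919% of all genes were), 6 genes were at least 1.5-fold lower (4.21%) and Npc1 and Acss2 at least 1.5-fold higher (4.01%). Just inside the 2-fold threshold stood Scd2 at -1.20 and just outside it Mvd at -0.92.

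The controls, which received no inhibitor, differed from each other by as much. In the control for CX4945, 29 of 35 genes were below their level in the control for DMAT (49.9% of all 9564 genes), and the median log2 ratio was -0.37. The interval lay below 1 in 20 genes (9.16%) and above 1 in Fasn and Elovl5 alone (9.46%). Scd1, Scd2 and Fads2 were at least 2-fold lower (1.28%), with Scd2 at -1.41 inside the threshold and Tm7sf2 at -0.96 outside it, and 8 genes were at least 1.5-fold lower (4.8%). At least 2-fold higher were 0 genes (0.983%), as were 0 at 1.5-fold (4.14%). This comparison shares a library with each of the other comparisons, so its values are set beside theirs and not tested against them.

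**Figure D2:**
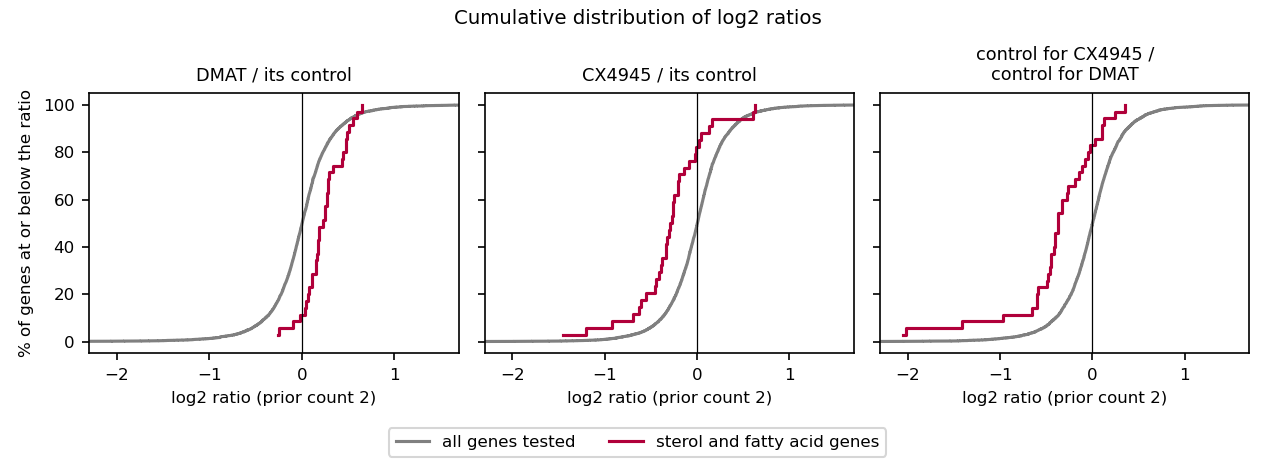
Cumulative share of genes (vertical axis, %) at or below each log2 ratio (horizontal axis, prior count 2) for all genes tested (grey) and the sterol and fatty acid genes (red) in the 3 comparisons. The red curve lies to the right of the grey with DMAT (median 0.23) and to the left with CX4945 (-0.29) and between the controls (-0.37). The Scd1 ratio with CX4945 is left out, since that pair held fewer than 20 of its reads.

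None of the 5 regulators was as much as 1.5-fold apart in any comparison. Gene positions are given in mm9. Srebf2, whose product favours sterol genes (mm9 chr15:81977696-82035806), was at 391 CPM in the control for DMAT, 436 CPM with DMAT, 302 CPM in the control for CX4945 and 261 CPM with CX4945. Each inhibitor library lay beyond its own control, on opposite sides, but the controls lay further apart than either pair. The ratio was 1.11 with DMAT (1.02 to 1.21), 0.865 with CX4945 (0.771 to 0.970) and 0.772 between the controls (0.700 to 0.850).

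Srebf1, whose product favours fatty acid genes (chr11:60012591-60036083), was at 184 and 190 CPM in the DMAT pair and at 143 and 112 CPM in the CX4945 pair. Its ratio was 1.03 with DMAT (0.906 to 1.17) and 0.788 with CX4945 (0.663 to 0.936), and 0.774 between the controls (0.671 to 0.891). Insig1, itself a SREBP target that restrains the pathway, had the same order, with 157 CPM in the control for DMAT, 163 with DMAT, 125 in the control for CX4945 and 105 with CX4945, and with both inhibitor intervals covering 1 (0.900 to 1.18 and 0.697 to 1.00). Between the controls its ratio was 0.795 (0.683 to 0.925). The escort gene Scap stood apart from this order at 123, 140, 132 and 144 CPM, higher with each inhibitor than in its control, by 1.14 (0.981 to 1.33) and 1.09 (0.927 to 1.29), with both intervals covering 1. Insig2, the second INSIG gene, was low throughout, with 55, 53, 46 and 33 reads in the same order of libraries.

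The enzymes from acetyl-CoA to farnesyl diphosphate had the largest summed ratio with DMAT of the role groups. Of 6 measured, 5 were above 0 with DMAT (50.8% of all genes were), with a median of 0.39. With CX4945, 6 were below 0 (49.4%), with a median of -0.43. Between the controls 6 were below 0 (49.9%), with a median of -0.41. In sum they held 718 CPM in the control for DMAT and 971 with DMAT, a ratio of 1.35 (1.27 to 1.44), and 531 and 394 CPM in the CX4945 pair, a ratio of 0.743 (0.679 to 0.813). The CX4945 control stood at 0.740 of the DMAT control (0.688 to 0.795), so the difference between untreated cultures was about as large as that with either inhibitor. Most of the sum came from Idi1, Fdps and Acat2, with 390, 167 and 74.9 CPM in the control for DMAT. Of their reads 4.44%, 34.5% and 52.1% were unique, so the summed ratios and their rank among the role groups are uncertain.

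Pmvk, phosphomevalonate kinase (mm9 chr3:89263040-89272935), was at 50.1 and 63.6 CPM in the DMAT pair and at 31.5 and 20.1 CPM in the CX4945 pair. Its ratio with DMAT was 1.27 (1.01 to 1.60). It was 1.57-fold lower with CX4945 than without (1.05 to 2.36), and 1.59-fold lower in the control for CX4945 than in that for DMAT (1.19 to 2.14). The 4 libraries thus did not overlap between experiments. Mvd, which decarboxylates mevalonate diphosphate (chr8:124957496-124967322), had 38 and 43 reads in the DMAT pair and 23 and 10 in the CX4945 pair. Its ratio with CX4945 was 0.488, but the interval covered 1 (0.207 to 1.07) and a fall was not detectable at this depth.

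Idi1 (isopentenyl diphosphate isomerase) and Fdps (farnesyl diphosphate synthase) had the most reads of the group, and are described after their values were seen. Idi1 (chr13:8884747-8891697) had 1084, 1359, 673 and 439 reads with a ratio of 1.37 with DMAT (1.26 to 1.48) and 0.732 with CX4945 (0.648 to 0.827). For Fdps (chr3:88897514-88905881) the ratios were 1.40 (1.23 to 1.58) and 0.748 (0.618 to 0.904). Given their low shares of unique reads, and 52.1% for Acat2 (acetyl-CoA acetyltransferase), reads of related sequences may be counted in all 3 genes. Their levels and ratios are therefore uncertain. In the CX4945 pair the unique reads were 35 and 24 for Idi1 and 90 and 72 for Fdps, and no interval was computed from them. Mvk, mevalonate kinase, was the sole enzyme of this stretch below its control with both inhibitors, with 59 and 45 reads in the DMAT pair and 37 and 31 in the CX4945 pair. Both intervals covered 1.

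From squalene to cholesterol, all 11 enzymes were above 0 with DMAT (50.8% of all genes were), 7 of them with an interval above 1 (9.21%). With CX4945, 9 were below 0 (49.4%), 2 with an interval below 1 (7.42%). Between the controls 9 were below 0 (49.9%), each of the 9 with an interval below 1 (9.16%). The medians were 0.28, -0.30 and -0.48. Summed levels were 1077 CPM in the control for DMAT, 1353 with DMAT, 784 in the control for CX4945 and 611 with CX4945. The ratio was 1.26 with DMAT (1.20 to 1.32) and 0.779 with CX4945 (0.724 to 0.838), against 0.728 between the controls (0.686 to 0.772).

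Nsdhl (mm9 chrX:70163896-70203853) is a sterol dehydrogenase that takes part in removing methyl groups from lanosterol. With unique reads alone Acss2 was higher, but with all reads Nsdhl had the largest ratio with DMAT of all genes on the list. Levels of 41.1 CPM without and 65.2 CPM with DMAT made it 1.59-fold higher (1.24 to 2.03). In the CX4945 pair it was at 26.7 and 21.6 CPM, both below the DMAT pair, with a ratio of 0.809 (0.536 to 1.21). Sc4mol, the methylsterol monooxygenase now named Msmo1 (chr8:67196936-67212589), was the next of this stretch with 82.8 and 122 CPM in the DMAT pair, a ratio of 1.48 (1.24 to 1.76), and 60.4 and 46.2 CPM in the CX4945 pair, a ratio of 0.764 (0.582 to 1.00).

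Cyp51, the lanosterol demethylase (mm9 chr5:4081145-4104746), was at 344 and 416 CPM in the DMAT pair and at 228 and 155 CPM in the CX4945 pair. The ratio to its control was 1.21 with DMAT (1.11 to 1.32) and 0.680 with CX4945 (0.589 to 0.783). The difference between the controls was 1.51-fold (1.35 to 1.68), which is as large as that in either pair. Lss, lanosterol synthase (chr10:75994333-76019883), was at 134, 150, 96.3 and 59.4 CPM. It was 1.62-fold lower with CX4945 (1.29 to 2.04), the largest ratio of this stretch with all reads, while with DMAT its interval covered 1 (0.968 to 1.29). Of its reads 46.0% were unique, so an overlapping or related locus may share them. With unique reads alone its log2 ratio with CX4945 was -0.54, against -0.55 for Cyp51.

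Fdft1, squalene synthase and the first enzyme committed to sterols (mm9 chr14:63763990-63796630), differed mainly between the experiments, at 100 and 119 CPM in the DMAT pair and at 65.7 and 66.8 CPM in the CX4945 pair. Its ratio with CX4945 was 1.02 (0.801 to 1.29), and between the controls it was 1.53-fold lower (1.25 to 1.87). Of the Fdft1 reads 78.0% were unique, and both values depend on the rest. With unique reads alone its log2 ratio was -0.23 with CX4945, against 0.02 with all reads. Between the controls it was -0.43, against -0.60. Tm7sf2, a sterol reductase, was rarer, with 33 and 32 reads against 13 and 8, and was 2.09-fold lower in the control for CX4945 (1.07 to 4.32), with no interval apart from 1 in either inhibitor pair. Ebp (sterol isomerase) and Hsd17b7 (a sterol ketoreductase) were the exceptions among the controls, with ratios of 1.09 (0.811 to 1.47) and 1.19 (0.858 to 1.64).

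The pair of sterol transport genes went apart. Stard4, a cytosolic sterol carrier and SREBP target (mm9 chr18:33359009-33373516), was at 117 and 168 CPM in the DMAT pair, 1.43-fold higher (1.23 to 1.65), and at 106 and 69.7 CPM in the CX4945 pair, 1.53-fold lower (1.24 to 1.89). Unlike in most sterol enzymes, its controls were near each other, with a ratio of 0.906 (0.764 to 1.07). Npc1, which exports cholesterol from lysosomes (chr18:12348202-12394909), had 74 and 57 reads in the DMAT pair and 50 and 70 in the CX4945 pair. It was 1.57-fold higher with CX4945 (1.08 to 2.31) and 0.840 of its control with DMAT (0.584 to 1.20).

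**Figure D3:**
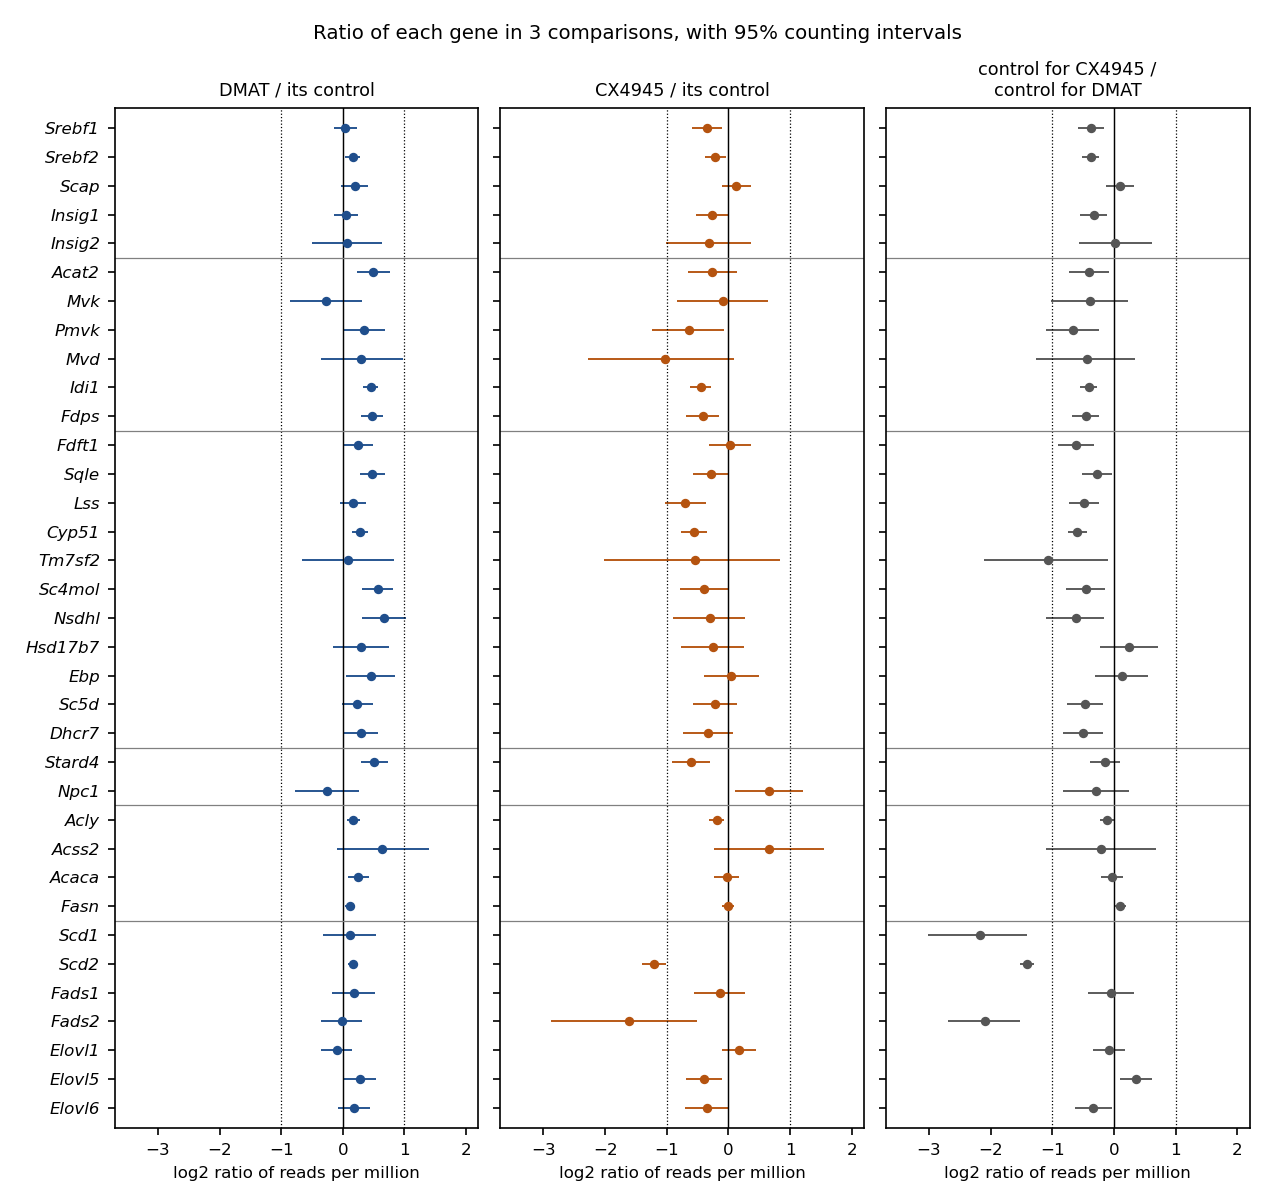
Log2 of the plain CPM ratio (no prior count) of each gene in the 3 comparisons (columns), with 95% counting intervals, genes grouped by role and dotted lines at 2-fold. Points lie mostly right of 0 with DMAT and left of 0 with CX4945 and between the controls. Scd2 and Fads2 are 2.31-fold and 3.07-fold lower with CX4945, and 2.66-fold and 4.25-fold lower between the controls.

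The enzymes that build the fatty acid chain had the summed ratios nearest to 1 of the role groups with CX4945 and between the controls, but not with DMAT. In sum Acly, Acss2, Acaca, Fasn and Me1 held 1506 CPM in the control for DMAT, 1680 with DMAT, 1518 in the control for CX4945 and 1451 with CX4945. The sum was 1.12-fold higher with DMAT (1.07 to 1.16), while the interval covered 1 with CX4945 (0.910 to 1.00) and between the controls (0.963 to 1.05). Fasn, the fatty acid synthase (mm9 chr11:120667254-120685492), was at 768, 832, 825 and 818 CPM, and Acaca, the acetyl-CoA carboxylase, at 197, 235, 193 and 190 CPM. Between the controls the ratio was 1.07 in Fasn (1.01 to 1.14) and 0.980 in Acaca (0.862 to 1.11). With DMAT it was 1.08 in Fasn (1.02 to 1.15) and 1.19 in Acaca (1.06 to 1.34). With CX4945 the intervals of both genes covered 1.

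Acly, which supplies cytosolic acetyl-CoA from citrate, was at 531, 598, 492 and 430 CPM and differed from its control in opposite directions, with ratios of 1.13 (1.05 to 1.21) and 0.875 (0.800 to 0.957). Acss2, which makes acetyl-CoA from acetate (mm9 chr2:155343684-155411460), had 28 and 40 reads in the DMAT pair and 20 and 28 in the CX4945 pair. It was the sole gene at least 1.5-fold higher with both inhibitors, 1.56-fold (0.937 to 2.62) and 1.57-fold (0.854 to 2.94), but neither interval excluded 1 at this depth. With unique reads alone, for which no interval was computed, its log2 ratio was 0.92 with DMAT and 0.55 with CX4945. Me1, the malic enzyme, had 1 read in the control for DMAT and 0 in the other libraries, where a count of 0 allows up to 1.18, 1.31 and 1.47 CPM.

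The desaturases gave the largest differences, and the widest of those lay between the experiments. Scd2, the more abundant stearoyl-CoA desaturase of these cells, which puts the double bond into saturated fatty acids (mm9 chr19:44368166-44381354), had 2496 reads in the control for DMAT, 2553 with DMAT, 773 in the control for CX4945 and 298 with CX4945. The levels were 899, 1002, 338 and 146 CPM. Both libraries of the CX4945 experiment were far below both of the DMAT experiment, a difference in which experiment, culture and library cannot be told apart. DMAT and its control were 1.11-fold apart (1.05 to 1.18). Scd2 was 2.31-fold lower with CX4945 than without (2.02 to 2.65), and 2.66-fold lower in the control for CX4945 than in that for DMAT (2.45 to 2.88). Reads across exon junctions, which the files count in a column of their own, followed the order of the totals, with 100, 113, 30 and 16. In the order of levels per kilobase, Scd2 was the first of the 36 genes in the control for DMAT and the tenth with CX4945.

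Scd1, the neighbouring paralogue (mm9 chr19:44468941-44482199), had the same order at lower levels, with 93 and 92 reads in the DMAT pair and 17 and 2 in the CX4945 pair. It was 4.50-fold lower in the control for CX4945 than in that for DMAT (2.67 to 8.05). With 19 reads in all, the CX4945 pair was under the minimum of 20 and its ratio is not given. Of the reads of Scd2 and Scd1, 95.7% and 92.6% were unique, so few could have come from the other gene.

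Fads2, the desaturase that starts the synthesis of long polyunsaturated fatty acids (mm9 chr19:10138654-10175993), had 160, 145, 31 and 9 reads. With DMAT its ratio was 0.988 (0.784 to 1.24), with CX4945 it was 3.07-fold lower (1.43 to 7.33) and between the controls 4.25-fold lower (2.88 to 6.46). Its junction reads were 58, 58, 11 and 3. Fads1, which acts after Fads2 in the same route and lies next to it (chr19:10257378-10271360), was described after its values were seen because it stood level, at 49.3, 55.7, 47.7 and 43.2 CPM. Its ratio was 1.13 with DMAT (0.887 to 1.44), 0.906 with CX4945 (0.676 to 1.21) and 0.967 between the controls (0.745 to 1.25).

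**Figure D4:**
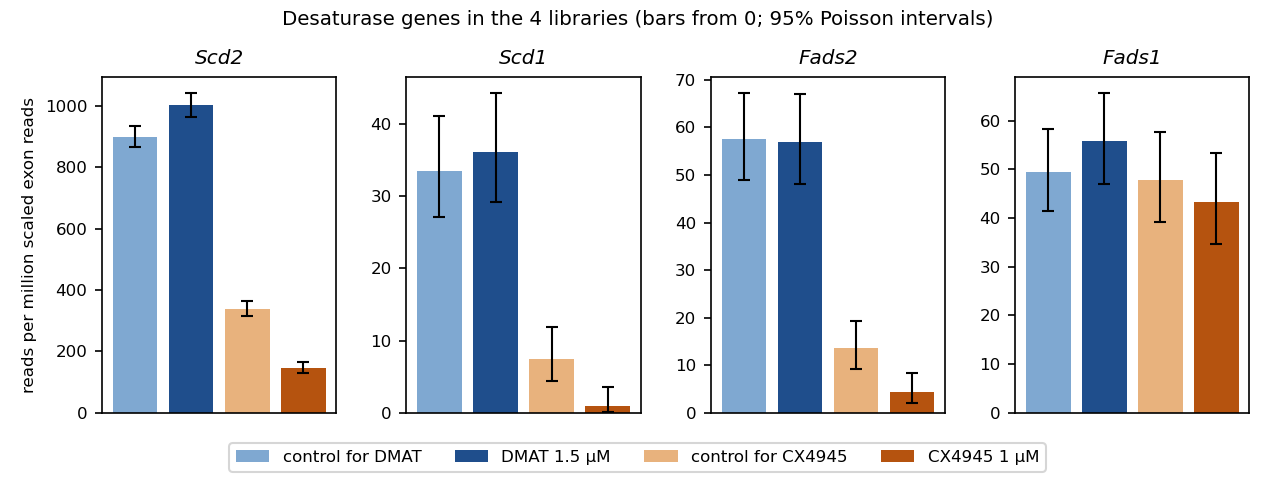
Levels of the desaturase genes in the 4 libraries, in CPM, as bars from 0 with 95% Poisson intervals (counting error only) and a scale of its own for each gene. Scd2, Scd1 and Fads2 are lower in both libraries of the CX4945 experiment and lowest with CX4945, while Fads1 lies between 43.2 and 55.7 in all 4.

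The elongases, which lengthen the chains, differed less. Elovl5, which extends polyunsaturated chains, was at 85.0 and 103 CPM in the DMAT pair and at 109 and 83.0 CPM in the CX4945 pair, with ratios of 1.21 (1.01 to 1.45) and 0.762 (0.623 to 0.930). It was one of the few genes higher in the control for CX4945, by 1.28 (1.07 to 1.54). Elovl6, which extends palmitate, was at 87.2, 99.3, 69.2 and 54.5 CPM, while Elovl1, which extends saturated chains to great length, had 282, 242, 219 and 219 reads. Both inhibitor intervals covered 1 in each.

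Side by side, 26 of the 34 genes in both inhibitor pairs were above their control with DMAT and below it with CX4945, a pattern that 23.7% of all 9262 genes had. Npc1 and Elovl1 had the reverse (23.7%), Scap, Fdft1, Ebp and Acss2 were above 0 with both (26.8%) and Mvk and Fads2 below 0 with both (25.7%). With unique reads alone, Fdft1 was below 0 with CX4945. The intervals lay above 1 with DMAT and below 1 with CX4945 in 9 genes (0.659% of all genes), which were Srebf2, Pmvk, Idi1, Fdps, Cyp51, Stard4, Acly, Scd2 and Elovl5, and the reverse in 0 (0.788%). The place of Idi1 and Fdps among the 9 rests mostly on reads that were not unique (4.44% and 34.5% were unique). No interval was computed from unique reads alone. The inhibitors were given at different doses in different experiments, so the difference between them was not tested.

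Fitted over both experiments with the pair as a block, 0 of the 35 genes tested passed edgeR's quasi-likelihood test at a Benjamini-Hochberg adjusted p of 0.05, where 0.561% of all 9629 genes did (54 genes, of which 17 rose, 0.177%, and 37 fell, 0.384%). At an unadjusted p under 0.05 there was 1 gene, Scd2, against 7.23% of all genes. DESeq2 with the same block also called 0 of these genes. Both fits average the pairs, so changes in opposite directions cancel. A count of 0 therefore does not show that neither inhibitor changed these genes. Scd2 had a joint log2 fold change of -0.41 ± 0.17 (SE; edgeR adjusted p = 0.563), an average of a value above 0 with DMAT and one well below 0 with CX4945. It passed with unique reads (adjusted p = 0.00214) and with total-count scaling (0.0479), with a log2 fold change of -0.39 and -0.41. In fits without the block, its value was 0.77 without the control for DMAT and 0.68 without the CX4945 library, and leaving out the DMAT library let 6 of these genes pass as lower, in a fit where 35 of all 9840 genes fell and 38 rose. Acss2 had the largest joint value, 0.64 ± 0.33 (adjusted p = 0.727). By role, the lowest edgeR adjusted p was 0.850 among the regulators, 0.905 among the mevalonate and isoprenoid enzymes and 0.840 among the enzymes from squalene on.

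Other genes of lipid metabolism, listed by function, gave medians nearer to 0 than the sterol enzymes did. In 13 further sterol pathway genes, such as those for SREBP proteases, sterol reductases and sterol esterification, the median log2 ratio was -0.12 with DMAT, 0.07 with CX4945 and -0.04 between the controls. The median was 0.02, -0.09 and -0.16 in 19 other fatty acid and glycerolipid synthesis genes, and 0.07, -0.12 and -0.09 in 16 fatty acid oxidation genes. In 11 genes of isoprenoid side branches such as prenylation it was 0.01 with DMAT and 0.04 with CX4945, and in 5 lipid droplet genes -0.07 and 0.25. The joint edgeR fit called 0 genes of these lists, where it called 0.561% of all genes. At an unadjusted p under 0.05 there were 4 genes over all these lists together, where 7.23% of all genes were. The lists are of different sizes and the differences between them were not tested.

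Of the genes on these lists and among 7 genes of the LXR and sterol efflux route, which is switched on by sterol surplus, Abca1 alone was at least 2-fold different in an inhibitor pair. Abca1, which exports cholesterol from the cell (mm9 chr4:53043659-53172767), had 29 reads in the control for DMAT, 14 with DMAT, 21 in the control for CX4945 and 5 with CX4945. It was lower with each inhibitor than in its control, with a ratio of 0.526 with DMAT (0.257 to 1.03) and 0.267 with CX4945 (0.0787 to 0.728), while the controls were close, at 0.880 (0.477 to 1.60). It did not pass the joint test (log2 -1.28 ± 0.46 SE, edgeR adjusted p = 0.403). The route as a whole had medians of -0.04 with DMAT, 0.06 with CX4945 and 0.00 between the controls. In the joint edgeR fit 0 of its 7 genes passed (0.561% of all genes), with 2, Abca1 among them, at an unadjusted p under 0.05 (7.23%). The other was Rxra, a partner receptor of LXR named after its values were seen, with log2 ratios of 0.64 with DMAT, 0.71 with CX4945 and 0.77 between the controls and a joint value of 0.69 (edgeR adjusted p = 0.123).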

How the data were processed

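The authors deposited, for each of 4 libraries, a table of whole-number counts per feature (TruSeq RNA kit, total RNA, per the labels' protocols; Illumina MiSeq, per the series description). The deposited count of total exon reads was used, with unique, exon-exon and gene reads and the exon length beside it. CASAVA 1.8.2 and mm9 are named in the submitters' processing notes; the aligner, annotation, strand and counting rule are not given in the sources used here.

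Libraries were grouped by their titles. Log2 ratios of CPM used a prior count of 2 and TMM factors of 0.990 to 1.009 (edgeR 4.0.16, R 4.3.3) and needed 20 reads in the pair. Plain ratios have exact conditional 95% intervals, and a count of 0 a floor of 3 counts; neither covers more than counting error, and without molecular identifiers reads are not independent molecules. The joint fit was edgeR's quasi-likelihood test with the pair as a block and Benjamini-Hochberg adjustment over 9629 genes. It leaves 1 residual degree of freedom per gene, and edgeR draws each gene's spread towards that of all genes (prior degrees of freedom 19.7). Its p-values thus rest on how far these libraries disagree, mostly as pooled over all genes, and that spread may be technical. The SE is the log2 fold change divided by the square root of F. The pairing comes from the titles; over 6969 genes with at least 200 reads the log2 difference between experiments in the controls and in the inhibitor libraries had r = 0.425 (Pearson, across genes, which are not independent replicates). The scripts were tested on simulated data.

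Genes described singly were the 5 regulators, those at least 1.5-fold in a comparison, those with both inhibitor intervals on the same side of 1, those past the joint test and those under 20 reads; genes of other lists needed 2-fold or the joint test. Acat2, Mvk, Idi1, Fdps, Sc4mol, Ebp, Hsd17b7, Fasn, Acaca, Acly, Fads1 and the elongases were added after their values were seen. The members and lists were chosen with earlier results of these data known. Alternatives covered scaling (DESeq2 1.42.0 size factors, total counts), prior count, filters, unique reads, fold threshold, the other control, the block and leaving out each library. Promoter sequences are RefSeq's (GRCm38.p6).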

Additional observations from a re-analysis of the deposited data

Results flagged for a closer look

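For 9 genes the counting interval lay above 1 with DMAT and below 1 with CX4945, each against its own control, so that the libraries moved in opposite directions. The log2 ratios with DMAT and with CX4945 were 0.16 and -0.21 for Srebf2, 0.34 and -0.63 for Pmvk, 0.45 and -0.45 for Idi1, and 0.48 and -0.42 for Fdps. They were 0.28 and -0.55 for Cyp51, 0.51 and -0.60 for Stard4, 0.17 and -0.19 for Acly, 0.16 and -1.20 for Scd2, and 0.27 and -0.39 for Elovl5. The difference between the inhibitors was not tested in any of them, since each arm held 1 library and compound, dose and experiment cannot be told apart. Between the controls Srebf2, Pmvk, Idi1, Fdps, Cyp51 and Scd2 also had an interval below 1, Elovl5 had one above 1, and Stard4 and Acly had intervals that covered 1. Few reads of Idi1 (4.44%) and Fdps (34.5%) were unique, so the intervals of these genes rest mostly on reads that were not.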

How the results depend on the processing

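Against the control of the other experiment, 6 genes were at least 2-fold higher with DMAT (median log2 ratio 0.652), among 161 of all genes in place of 105, and 8 at least 2-fold lower with CX4945 (median -0.659), among 212 in place of 86. At a 1.5-fold threshold 2 genes were higher with DMAT, 2 were higher and 6 lower with CX4945, and 8 were lower between the controls. With at least 50 reads per pair, 1 gene was at least 2-fold lower with CX4945, since Fads2 left the test with fewer reads.

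In the joint fit 1 gene, Scd2, fell with total-count scaling and 1, Scd2, with unique reads. Without the replicate block 0 of these genes passed, and over all genes 0 rose and 1 fell; DESeq2 with the block gave 2 and 1, DESeq2 size factors 35 and 49, total-count scaling 44 and 68, and unique reads 45 and 63. Leaving out each library in turn, without the block, assumes that the lone library of an arm varies like the others. The number of these genes that fell then ran from 0 to 6. The 6, found without the DMAT library, were Lss, Idi1, Fads2, Scd2, Scd1 and Cyp51, in a fit where 35 of all genes fell and 38 rose. Over all genes 1 fell and 0 rose without either control, and 35 fell and 20 rose without the CX4945 library. The joint log2 fold change ran from -2.09 to 0.77 for Scd2, from -4.35 to 1.36 for Scd1 and from -3.03 to 1.21 for Fads2. It was above 0 without the control for DMAT (0.77, 1.36 and 1.21) and without the CX4945 library (0.68, 0.76 and 0.63). The cause was not tested.

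Of the recomputed results that answer a comparison, 83 stayed close to the reported one, which for counts allows a factor of 1.5 (2 genes at least 2-fold lower with CX4945 became 3 in some settings, and 3 between the controls became 4 with a prior count of 0.5), and 12 moved further. Of those for single genes and for all genes, 438 stayed close, 62 moved, 6 changed sign and 5 newly passed the test. Genes with few reads, such as Mvd, Tm7sf2, Acss2, Scd1 and Fads2 in the CX4945 pair, are limited by depth.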
